A study of Mus musculus with 8 samples.

Results

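The AP-1 and EGR immediate-early factors described here are 10 genes taken from a fixed list of symbols: the FOS genes Fos, Fosb and Fosl2, the JUN genes Jun, Junb and Jund, the zinc-finger genes Egr1 and Egr3, and Atf3 and Ier2. Each symbol had 1 row in each of the 8 deposited count tables, among 23282 rows in all, and all 10 were among the 13174 genes that passed the filter on low counts. RNA was taken from a calf muscle, the gastrocnemius, of C57BL/6 mice and sequenced from the 3' ends of transcripts.

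By title, 2 libraries named RP represent mice with tumours of Lewis lung carcinoma cells, a line from a mouse lung tumour, that were dosed by mouth with 100 mg/kg of an extract of the peony Paeonia lactiflora made in 30% ethanol, every day for 2 weeks. Another 3, titled Control, represent mice with the same tumour given 200 µl of water. The 3 titled Normal represent mice that had saline injected instead of tumour cells and were then given water. The tumour cells went under the skin, not into the lung, and dosing began after 2 weeks of growth, when mice had been regrouped so that tumour sizes matched. The listed age is 4 weeks, with no statement of whether it applies to injection or to sampling. Nothing in the labels ties libraries to individual animals, and the p-values therefore reflect the variation among these libraries, which may be technical.

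The labels of 6 of the 8 libraries conflict, because each table of a sample titled Normal is headed with the name Control and each table of a sample titled Control with the name Normal. Control and Normal below always mean libraries with those titles. If the table headings are right instead, every Control minus Normal difference has the opposite sign, and RP minus Control and RP minus Normal trade places. Totals ranged between 9528011 and 12333767 counts per library. Levels are CPM, counts scaled to library size after TMM normalization, which adjusts library sizes so that most genes are level between libraries.

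Immediate-early genes are switched on within minutes of a stimulus, without new protein synthesis, by MAP kinases acting through serum response factor, ternary complex factors and CREB. FOS and JUN proteins pair through leucine zippers to form AP-1, and ATF3 belongs to the same wider family. EGR1 and EGR3 bind GC-rich sites. In skeletal muscle these genes are known to respond to contraction, stretch, injury and circulating signals, and most of their transcripts are short-lived.

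Promoter sequence is shown for 5 members, because the 3 genes that differed between Control and Normal (Jun, Fosb and Fosl2) and the 2 whose level varied most between libraries of the same group at over 5 CPM (Atf3 and Fos) each held a match to a searched motif of JUN, EGR, CREB or MEF2 factors within 150 bases upstream of the start. Sequences are from RefSeq, build GRCm38.p6 (mm10), written 5′ to 3′ on the strand of the gene. Each ends at the base before an annotated start. For Fosb this start lies inside the gene as listed, chr7:19302696-19310118. Its window therefore overlaps the listed gene, and the marked site lies in the overlap. A promoter was found for 7 of the 10 members. Capitals mark matches on either strand.

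Jun, chr4:95052223-95052372, minus strand: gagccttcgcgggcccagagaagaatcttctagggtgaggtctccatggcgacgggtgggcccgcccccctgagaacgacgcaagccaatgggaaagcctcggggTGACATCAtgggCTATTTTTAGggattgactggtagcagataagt
Fosb, chr7:19310046-19310195, minus strand: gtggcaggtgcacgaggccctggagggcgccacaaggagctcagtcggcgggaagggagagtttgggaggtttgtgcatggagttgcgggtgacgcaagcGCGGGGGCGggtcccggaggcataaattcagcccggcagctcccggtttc
Fosl2, chr5:32136322-32136471, plus strand: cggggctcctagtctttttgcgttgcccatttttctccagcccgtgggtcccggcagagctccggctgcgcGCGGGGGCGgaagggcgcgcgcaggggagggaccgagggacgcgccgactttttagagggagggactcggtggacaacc
Fos, chr12:85473740-85473889, plus strand: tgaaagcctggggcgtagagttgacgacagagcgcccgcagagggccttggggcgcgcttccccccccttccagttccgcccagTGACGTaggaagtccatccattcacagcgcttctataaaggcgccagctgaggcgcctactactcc
Atf3, chr1:191183334-191183483, minus strand: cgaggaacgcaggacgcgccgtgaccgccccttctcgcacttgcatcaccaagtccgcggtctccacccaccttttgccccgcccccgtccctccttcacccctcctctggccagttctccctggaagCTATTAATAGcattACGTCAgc

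Jun held the JUN-type octamer TGACATCA, which 2.32% of the 32851 promoter windows of the same length also hold, followed by a site of the MEF2 type, which 0.332% hold. In Fosb and in Fosl2 the capitals mark the same EGR site, a match to GCGNGGGCG, present in 3.81% of windows. Fos and Atf3 held the CREB core TGACGT, in Atf3 on the opposite strand, and 5.15% of windows hold it. Atf3 held an MEF2-type site as well. The AP-1 heptamer TGANTCA (4.24% of windows), the CREB octamer TGACGTCA (1.36%) and the CArG box of serum response factor (0.916%) had no match in these 150 bases of the 7 promoters, and the promoters of Junb and Jund held none of the motifs searched. Among the motifs searched, the octamer TGACGTCA contains the core TGACGT. For Jund the window ends before the RefSeq start, chr8:70697739. The GENCODE gene starts further downstream, at chr8:70698949, and the bases just before that start were not searched. For Atf3, on the minus strand, the GENCODE gene starts further upstream, at chr1:191218039. The window printed for Atf3 lies inside that gene, and the bases just before that start were not searched. A match describes letters, not a bound site.

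Jun, which encodes c-Jun, had the smallest adjusted p of the members, and was lower in Control than in Normal. Its level was 166 and 257 CPM in RP 1 and 2, 142, 171 and 121 CPM in Control 1, 2 and 3, and 317, 258 and 312 CPM in Normal 1, 2 and 3. All Control libraries lay below all Normal libraries. RP 2 lay just under the lowest Normal library, and RP 1 lay inside the Control range. Jun averaged 145 ± 25.1 CPM in Control and 296 ± 32.4 CPM in Normal (SD, n = 3 each), a log2 change of -1.03 ± 0.189 (SE) and an adjusted p of 0.00413 in edgeR's quasi-likelihood test. The call held under all 16 alternative settings, with adjusted p between 4.79e-06 and 0.0348. Jun lies at chr4:95049036-95052222, and its 5' part is overlapped by the antisense gene Junos, which had no row in the tables. The last 300 bases of Jun shared no word of 50 bases with another gene.

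Fosl2 encodes Fra-2, a FOS protein that lacks the activation domain of c-Fos. It stood at 33.8 and 33.9 CPM in RP 1 and 2, 28.5, 31.2 and 28.5 CPM in Control 1, 2 and 3, and 44.5, 39.9 and 61.7 CPM in Normal 1, 2 and 3. Every Control library was below every RP library, and every RP library below every Normal library. The log2 change of Control against Normal was -0.73 ± 0.169 (SE), adjusted p = 0.0153. Fosl2 did not pass without Control 1 or without Control 3 (adjusted p = 0.0763 and 0.0759), where the log2 change was -0.71 in each fit.

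Fosb went the other way. This gene encodes FosB and, by splicing, the stable truncated form known as delta-FosB, and counts at the 3' end do not separate the forms. The level was 3.56 and 5.04 CPM in RP 1 and 2, 8.99, 17.6 and 3.44 CPM in Control 1, 2 and 3, and 2.88, 1.44 and 2.91 CPM in Normal 1, 2 and 3. Control 3 stood close to the Normal libraries and below both RP libraries, so the height of the Control mean rests on Control 1 and 2. Behind these levels lie 33 and 49 counts in RP, 102, 176 and 38 in Control, and 32, 15 and 30 in Normal. Fosb was higher in Control than in Normal by a log2 change of 2.04 ± 0.493 (SE), adjusted p = 0.0188. Without Control 2 the log2 change was 1.38 (adjusted p = 0.101), and without Normal 2 it was 1.78 (adjusted p = 0.0866), so the call did not hold without either library.

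**Figure D1:**
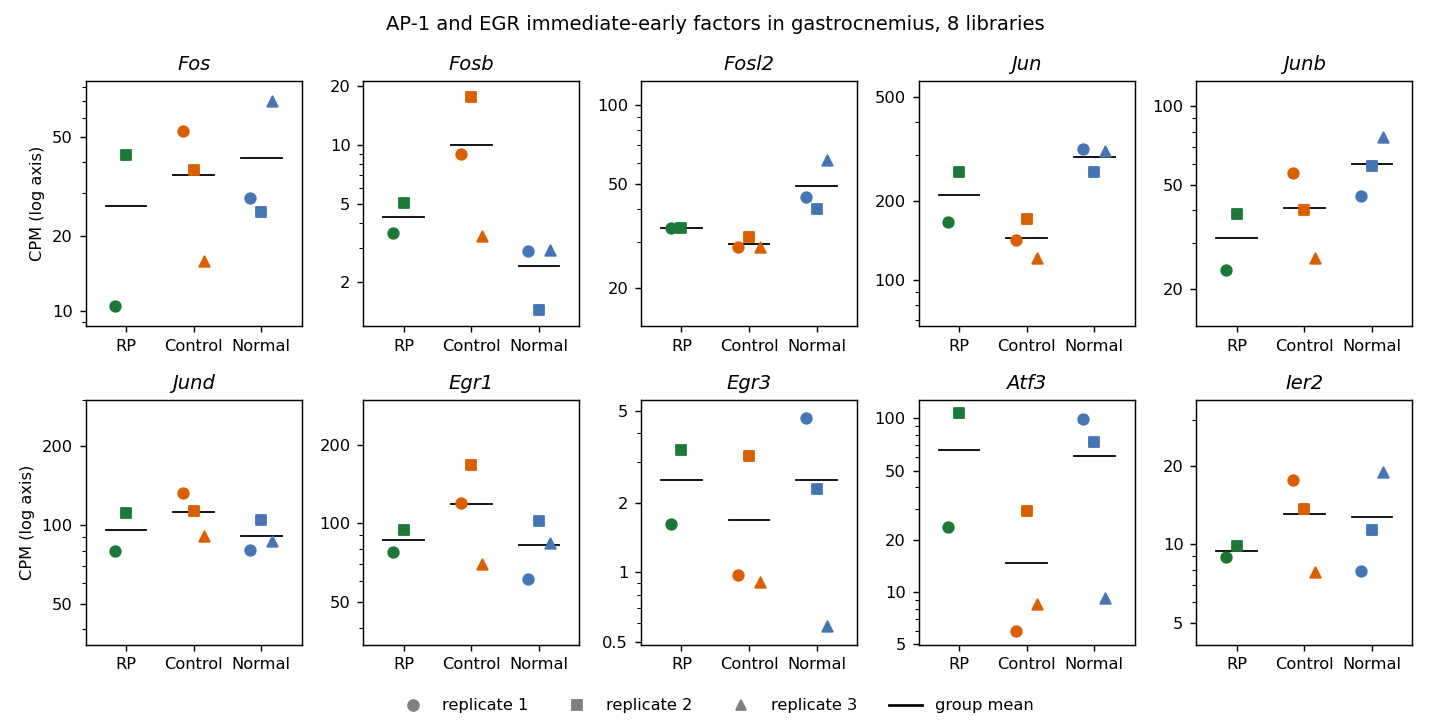
Level of each of the 10 genes in CPM on log axes, with groups in the order RP, Control and Normal, a symbol per library and a line at the group mean. The 3 Normal libraries of Jun sit between 258 and 317 CPM, all above the Control libraries, while Atf3 spans 9.22 to 99.0 CPM within the Normal group alone.

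In all, 3 of the 10 members were called in Control against Normal, 1 higher and 2 lower, against a background of 10.4% of the 13174 genes tested, with 4.99% called higher and 5.45% called lower. The same 3 members had no overlap between Control and Normal libraries, as had 31.3% of all genes tested. The median log2 change of the members was -0.39, beside 0.00 over all genes tested. A test for any difference among the 3 titled groups, which does not depend on whether titles or table headings hold for the Normal and Control libraries, called the same 3 genes, with adjusted p = 0.0122 for Jun, 0.0361 for Fosl2 and 0.0448 for Fosb, where 7.73% of all genes tested were called. That test lost calls when 1 library was left out: it called 0 members without Control 1, only Fosb without Control 3, and only Jun without RP 1, RP 2 or Control 2. It called Fosl2 and Jun without Normal 1 or Normal 2, and Atf3, Fosb and Jun without Normal 3.

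These changes stood beside differences in other cell types. The summed level of 11 neutrophil markers was 37.4 and 511 CPM in RP 1 and 2, 12.9 to 22.0 CPM in Control and 958 to 1988 CPM in Normal, and 3 of the 11 markers were at 0 in each Control library and 2 in RP 1. Sums of 10 erythroid markers were 6582 and 27960 CPM in RP, 9288 to 11820 CPM in Control and 29770 to 162200 CPM in Normal. In Control against Normal, 10 of 10 neutrophil markers tested and 9 of 10 erythroid markers were called lower and 0 higher. Of all genes tested, 5.45% were called lower there. Sums of 12 skeletal myofibre markers, with all 12 detected in all libraries, were 134200 to 137900 CPM in RP, 111300 to 131500 CPM in Control and 84440 to 116000 CPM in Normal. Sums of 12 macrophage and monocyte markers overlapped, at 434 to 669 CPM in RP, 510 to 728 CPM in Control and 348 to 719 CPM in Normal. Of the 12, 2 (Ly6c2 and Itgam) were called lower and 0 higher in Control against Normal. Sums of 12 fibroblast and tenocyte markers were 8534 to 8915 CPM in RP, 9821 to 10730 CPM in Control and 5644 to 9464 CPM in Normal. Dcn was the largest part of these sums, with a mean of 5091 CPM in Control and 5768 CPM in Normal. Of the 12, 7 were called higher and 0 lower in Control against Normal, with a median log2 change of 1.21. In RP against Normal 5 were called higher and 0 lower. Of all genes tested, 4.99% and 1.67% were called higher in these comparisons. Sums of 12 endothelial markers were 569 to 636 CPM in RP, 551 to 670 CPM in Control and 657 to 722 CPM in Normal. Of these 12, 3 (Cldn5, Eng and Vwf) were called lower and 0 higher in Control against Normal. Sums of 10 satellite cell markers were 126 to 140 CPM in RP, 109 to 119 CPM in Control and 165 to 188 CPM in Normal. Of these 10, 3 (Myod1, Myog and Sdc4) were called lower and 0 higher in Control against Normal, beside 5.45% lower of all genes tested. Pax7, Vcam1 and Calcr had log2 changes of 0.30, 0.63 and 1.54, none past the threshold, and the rest were below 0. The part of these cells in the results for Jun, Fosl2 and Fosb was not tested. In bulk tissue, fewer cells of a type and less RNA per cell cannot be told apart.

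The remaining members did not pass the test between Control and Normal. Fos, the founding FOS gene, stood at 10.5 and 42.7 CPM in RP 1 and 2, 53.0, 36.9 and 15.9 CPM in Control 1, 2 and 3, and 28.5, 25.0 and 70.3 CPM in Normal 1, 2 and 3. Libraries of the same group differed by 4.08-fold in RP, 3.33-fold in Control and 2.81-fold in Normal, and the 3 groups overlapped. The log2 change of Control against Normal was -0.22 ± 0.498 (SE), with a 95% interval of -1.30 to 0.85 and adjusted p = 0.821, and leaving out Control 3 or Normal 3 turned its sign.

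Egr1, the zinc-finger factor also known as Zif268 or Krox-24, was at 78.0 and 94.8 CPM in RP 1 and 2, 119.6, 167 and 69.8 CPM in Control 1, 2 and 3, and 61.4, 102 and 84.1 CPM in Normal 1, 2 and 3. Control 1 and 2 exceeded all other libraries, but Control 3 lay inside the Normal range. The log2 change was 0.53 ± 0.265 (SE), 95% interval -0.04 to 1.10, adjusted p = 0.227. Egr3, a relative of Egr1 needed for muscle spindles in mice, was near the limit of counting, with 15 and 33 counts in RP, 11, 32 and 10 counts in Control, and 52, 24 and 6 counts in Normal. Its log2 change was -0.60 ± 0.670 (SE), adjusted p = 0.622.

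Junb encodes a JUN protein that is known to maintain muscle mass in mice. It had 23.7 and 38.8 CPM in RP, 55.5, 40.2 and 26.3 CPM in Control, and 45.4, 58.9 and 76.1 CPM in Normal. Both RP libraries lay below all Normal libraries, and Control overlapped each of the others. Control against Normal gave a log2 change of -0.56 ± 0.265 (SE), adjusted p = 0.196. Junb is the only member whose 3' end shares words of 50 bases with another gene: a GENCODE model of Junb runs into the 3' end of Prdx2 on the opposite strand, so without the strand counted some counts of either gene could belong to the other. Prdx2, an antioxidant enzyme abundant in red cells, was at 132 to 133 CPM in RP, 118 to 131 CPM in Control and 96.2 to 170.2 CPM in Normal.

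Jund, whose protein is known for steadier expression than its relatives, had the narrowest interval among members that did not pass, with 79.8 and 112 CPM in RP, 133, 114 and 91.2 CPM in Control, and 80.7, 105 and 87.0 CPM in Normal. The log2 change was 0.31 ± 0.181 (SE), 95% interval -0.08 to 0.70, adjusted p = 0.301. The antisense gene Gm11175 lies inside Jund in the GENCODE annotation and had no row in the tables. Ier2, a nuclear immediate-early protein, stood at 8.94 and 9.87 CPM in RP, 17.5, 13.7 and 7.86 CPM in Control, and 7.92, 11.3 and 18.8 CPM in Normal, with a log2 change of 0.04 ± 0.319 (SE), adjusted p = 0.952.

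Atf3 encodes a stress-induced repressor of the ATF family and varied most of all members. It was at 23.8 and 107 CPM in RP 1 and 2, 6.00, 29.3 and 8.59 CPM in Control 1, 2 and 3, and 99.0, 72.8 and 9.22 CPM in Normal 1, 2 and 3. Normal 3 stood among the Control libraries, and RP 2 above every other library. The log2 change of Control against Normal was -2.06 ± 0.747 (SE), 95% interval -3.67 to -0.44, adjusted p = 0.0985. Without Normal 3 it was -2.57 and passed (adjusted p = 0.0103).

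**Figure D2:**
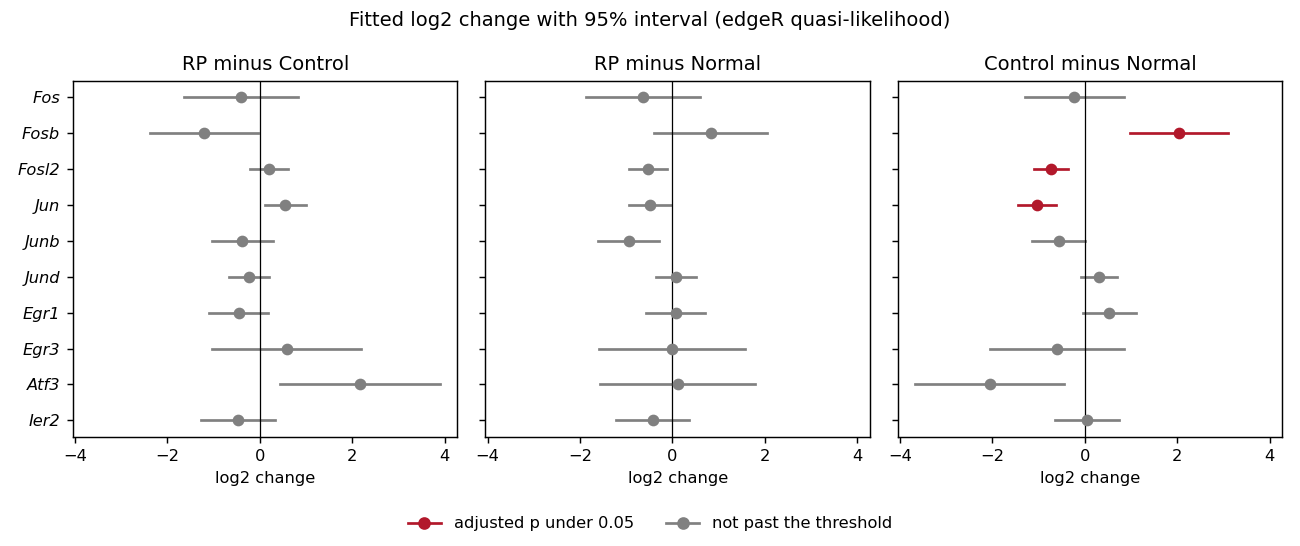
Fitted log2 change of each gene with its 95% interval for RP minus Control, RP minus Normal and Control minus Normal. Red points passed an adjusted p of 0.05, and all 3 of them (Fosb, Fosl2 and Jun) are in the panel for Control minus Normal.

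The comparison of RP with Control, if the titles hold, addressed the effect of the extract in mice with a tumour. No member passed, with 0 of 10 higher and 0 lower in edgeR, where the background was 0.175% of all genes tested, 0.144% higher and 0.0304% lower. DESeq2 also called 0, and at an unadjusted p under 0.05 edgeR had 3 of the 10 members, Atf3, Jun and Fosb, beside 1183 of the 13174 genes tested. Atf3 averaged 65.3 ± 58.7 CPM in RP (SD, n = 2) and 14.6 ± 12.8 CPM in Control (SD, n = 3), a log2 change of 2.17 ± 0.802 (SE), unadjusted p = 0.0177 and adjusted p = 0.419. Without RP 2 the log2 change of Atf3 was 0.72 (adjusted p = 0.892). For Jun the log2 change was 0.55 ± 0.207 (SE), unadjusted p = 0.0198 and adjusted p = 0.436. For Fosb it was -1.21 ± 0.538 (SE), unadjusted p = 0.0423 and adjusted p = 0.544. Fosl2 was the member whose RP libraries lay apart from all Control libraries, with a log2 change of only 0.21 ± 0.190 (SE), adjusted p = 0.811, and such separation is not rare, since 31.7% of all genes tested show it in this comparison.

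Against Normal, too, no member passed in RP, with 0 of 10 called beside 2.5% of all genes tested, made up of 1.67% higher and 0.835% lower. At an unadjusted p under 0.05 edgeR had 3 of the 10 members, Junb, Fosl2 and Jun, all lower in RP, beside 2254 of the 13174 genes tested. Junb averaged 31.2 ± 10.6 CPM in RP (SD, n = 2) and 60.1 ± 15.4 CPM in Normal (SD, n = 3), a log2 change of -0.94 ± 0.307 (SE), unadjusted p = 0.00871 and adjusted p = 0.128. DESeq2 called Junb alone of the members, with an adjusted p of 0.0387. Fosl2 gave a log2 change of -0.52 ± 0.191 (SE), adjusted p = 0.174. Jun gave -0.48 ± 0.211 (SE), adjusted p = 0.262. RP and Normal libraries did not overlap for Fosb, which was higher in RP, and for Fosl2, Jun and Junb, which were lower, a count of 4 of 10 beside 30.8% of all genes tested, 15.4% in each direction. The comparisons share libraries: RP minus Control and Control minus Normal share Control, and RP minus Normal shares a group with each. The mean level in RP lay between the Control and Normal means for 6 members: Fosb, Fosl2, Jun, Jund, Egr1 and Egr3. For Egr3 the RP and Normal means were nearly tied, at 2.5049 and 2.5195 CPM. Egr1 averaged 86.4 CPM in RP and 82.4 ± 20.2 CPM in Normal (SD, n = 3). Jund averaged 95.7 CPM in RP and 90.8 ± 12.5 CPM in Normal (SD, n = 3). The share of all genes tested with RP in between was not computed, and a return toward Normal under the extract was not tested.

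Members differed widely in the spread between libraries of the same group, from Atf3 at the top of all genes to Fosl2 near the middle. Pooled over groups, the SD of log2 CPM was 1.54 for Atf3, 1.07 for Egr3, 0.99 for Fos, 0.82 for Fosb, 0.54 for Ier2, 0.47 for both Egr1 and Junb, 0.27 for Jun, 0.26 for Jund and 0.21 for Fosl2. The median over all genes tested was 0.27. Among the 9737 genes with a mean of at least 5 CPM, Atf3 varied more than 99.9%, Fos more than 99.6%, Fosb more than 99.3% and Ier2 more than 96.2%. Jun, Jund and Fosl2 were near the middle of that distribution, at its 67.1, 62.7 and 45.2 percentiles. Egr3 had the lowest counts of the members, and the part of counting error in its spread was not tested.

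**Figure D3:**
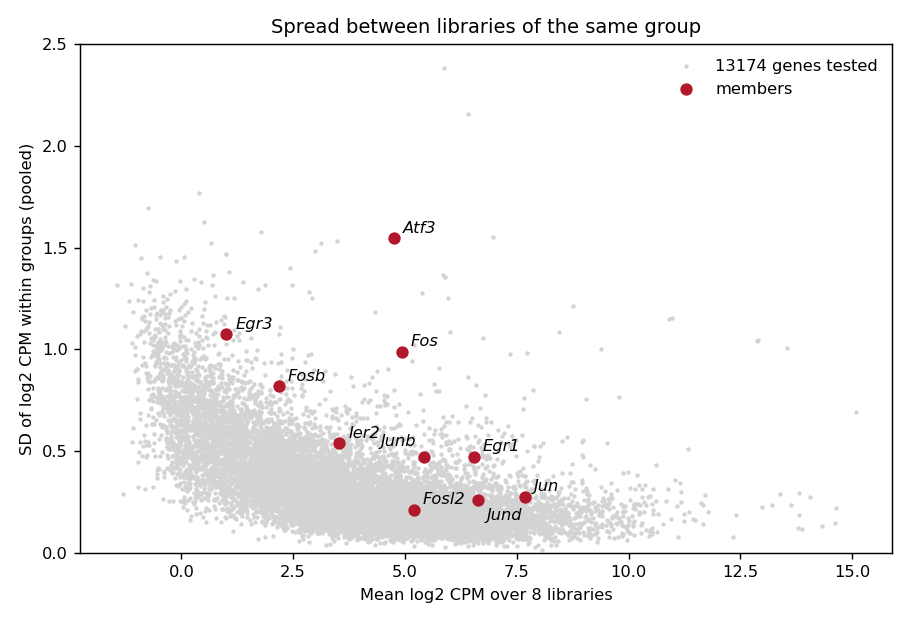
SD of log2 CPM within groups, pooled over RP, Control and Normal, against the mean log2 CPM over the 8 libraries, with a grey point for each of the 13174 genes tested and the 10 members marked. Atf3 and Fos lie at the upper edge for their level, while Jun, Jund and Fosl2 lie within the bulk of genes.

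Certain libraries were high or low for many members at once. All 10 members were higher in RP 2 than in RP 1, which held for 49.5% of all genes tested and for 20 of 29 other immediate-early genes tested. Control 3 was the lowest Control library for 9 of the 10 members, all but Atf3, which held for 34.4% of all genes tested and for 17 of the 29 other immediate-early genes. In the Normal group the members divided. Normal 3 was the highest Normal library for 5 of the 10, Fos, Fosb, Fosl2, Junb and Ier2, and the lowest for Atf3 and Egr3. Some of these places rest on near ties. Fosl2 had 33.93 CPM in RP 2 and 33.84 CPM in RP 1, and 28.475 CPM in Control 3 and 28.483 CPM in Control 1. Fosb had 2.91 CPM in Normal 3 and 2.88 CPM in Normal 1. Across all genes tested, 33.2% were highest in Normal 3, and so were 6 of the 29 other immediate-early genes. The share of counts on haemoglobin genes, a sign of blood in the sample, was 0.862% and 3.83% in RP 1 and 2, 1.41% to 1.61% in Control, and 4.57%, 9.56% and 19.7% in Normal 1, 2 and 3, and its part in the spread was not tested.

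**Figure D4:**
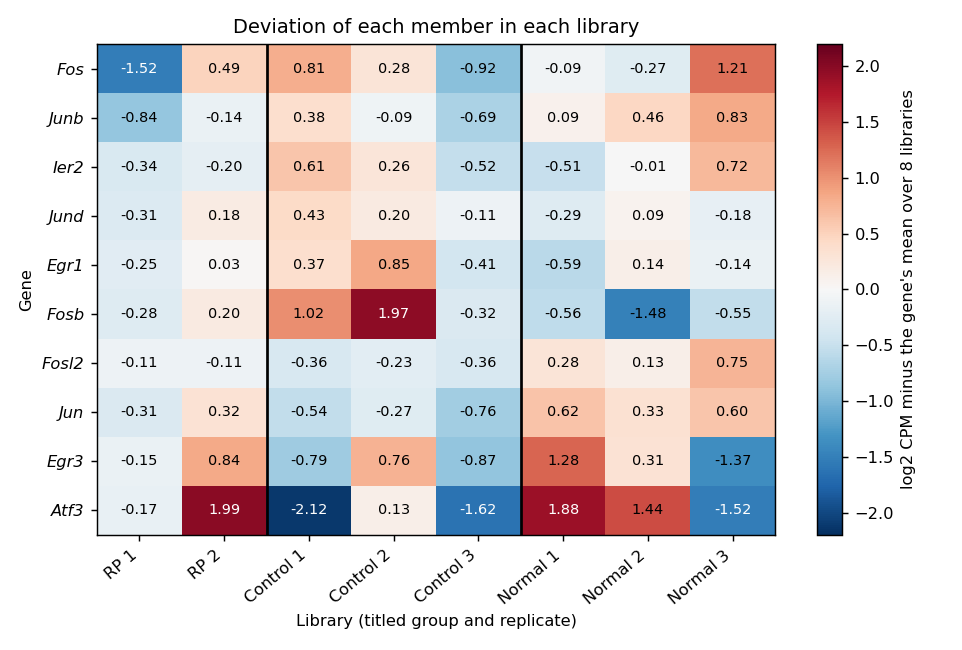
Log2 CPM of each gene in each of the 8 libraries minus the mean of that gene over all libraries, with libraries of RP, Control and Normal from left to right and red above the mean. Atf3 runs from -2.12 in Control 1 to 1.99 in RP 2, and Fos from -1.52 in RP 1 to 1.21 in Normal 3.

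Centred on their means over the 8 libraries, the members did not form a single pattern. The closest of the 45 pairs was Fosl2 and Jun, with a root mean square difference of 0.27 on the log2 scale, followed by Jund and Egr1 at 0.28 and Junb and Ier2 at 0.36. Fos and Junb differed by 0.49, and the farthest pair was Fosb and Atf3 at 2.05. The measure is not scaled to how far each gene varied, so genes that varied little lie close whatever their patterns. The root mean square deviation of a gene from its own mean was 0.246 for Jund, 0.353 for Fosl2, 0.429 for Egr1 and 0.455 for Ier2. It was 0.5 for Jun, 0.533 for Junb, 0.841 for Fos, 0.997 for Fosb and 1.54 for Atf3. In Normal 3 Fos stood 1.21 above its mean on the log2 scale while Atf3 stood 1.52 below its own (-1.52). These likenesses describe 8 libraries that share depth, preparation and group differences.

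Outside the list, the 3 genes closest to Jun by the same measure, among 9728 genes with a mean of at least 5 CPM, were Stat3 (0.18), Gtpbp4 (0.19) and Fam181b (0.19). Stat3, a transcription factor of cytokine signalling, was at 92.9 and 112 CPM in RP, 78.3, 82.0 and 68.1 CPM in Control, and 152, 133 and 119 CPM in Normal. Its 3 Normal libraries were the highest of the 8, as for Jun, and its 3 Control libraries the lowest, where for Jun Control 2 lay above RP 1. Closest to Fos were Arhgap20 (0.48), Hr (0.49) and Socs3 (0.50). Socs3, a feedback inhibitor of cytokine receptors, was at 10.7 and 30.4 CPM in RP, 33.2, 22.1 and 19.9 CPM in Control, and 40.7, 35.9 and 50.2 CPM in Normal. RP 1 was its lowest library and Normal 3 its highest, as for Fos. Its 3 Normal libraries were above all others, where for Fos Normal 1 and 2 lay below RP 2, Control 1 and Control 2. Closest to Egr1 were Rnls (0.20), Vrk2 (0.21) and Phtf1 (0.23).

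Other AP-1 and bZIP partners, the proteins that can pair with FOS and JUN or bind related sites, changed in 1 direction where they passed the test. Of 20 tested, 8 fell and 0 rose in Control against Normal, with a list median of -0.20. Over all genes tested, 5.45% were called lower and 4.99% higher there. Without Control 1, 2 or 3 the list had 5, 5 and 4 calls. Maff, a small MAF protein, was at 14.0 and 19.0 CPM in RP, 8.29, 7.70 and 6.24 CPM in Control, and 27.0, 22.9 and 25.7 CPM in Normal, and fell in Control by a log2 change of -1.76 ± 0.192 (SE), adjusted p = 0.000116. Its RP libraries lay between the other groups without overlap. Cebpd, a C/EBP factor of the acute-phase response, changed by -1.81 ± 0.232 (adjusted p = 0.000398), and Nfil3, a bZIP repressor, by -1.37 ± 0.193 (adjusted p = 0.000759). Fosl1, which encodes Fra-1, had 0 and 9 counts in RP, 1, 3 and 2 counts in Control, and 26, 19 and 12 counts in Normal, with a fitted log2 change of -3.17 ± 0.864 (adjusted p = 0.0333) for Control against Normal. Mafg, Mafk, Atf4 and Cebpb were the other partners that fell.

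Among the other immediate-early genes, calls in Control against Normal were again all lower. Of 29 tested, 7 fell and 0 rose in Control against Normal, with a list median of -0.45. Of all genes tested, 5.45% were called lower there and 0.835% in RP against Normal. Without Control 1 or without Control 3, the list had 3 calls in Control against Normal. Maff belongs to this list too. Ier3, a regulator of cell survival, was at 34.8 and 49.6 CPM in RP, 46.6, 41.7 and 42.2 CPM in Control, and 79.6, 95.7 and 93.6 CPM in Normal. It fell in Control by a log2 change of -1.04 ± 0.158 (SE), adjusted p = 0.00125, and in RP against Normal by -1.09 ± 0.181 (SE), adjusted p = 0.00685. Ppp1r15a, which encodes the phosphatase subunit GADD34, fell in Control by -1.26 ± 0.243 (SE), adjusted p = 0.00561. The kinase gene Sik1 was the other member of this list that fell in RP against Normal, by -1.35 ± 0.276 (SE), adjusted p = 0.0217, and the list had 0 calls in that comparison without RP 1, 1 without Normal 2 and 5 without RP 2 or Normal 3.

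None of the 3 tested genes among other EGR factors and NAB corepressors passed in any comparison, in edgeR or DESeq2. Egr2, a zinc-finger relative of Egr1, was at 2.48 and 2.88 CPM in RP, 3.79, 5.70 and 4.16 CPM in Control, and 2.97, 2.39 and 2.14 CPM in Normal. All Control libraries lay above all others, with a log2 change of 0.86 ± 0.323 (SE) against Normal, adjusted p = 0.110. The NAB proteins bind EGR factors and repress them: in Control against Normal Nab1 gave a log2 change of -0.23 ± 0.179 (SE), adjusted p = 0.457, and Nab2 one of -0.45 ± 0.240 (SE), adjusted p = 0.252. Egr4 was at 0 in all 8 libraries.

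Upstream genes were called at about the background share of 10.4% in Control against Normal, with 2 of 17 and 3 of 25 called in the pair of lists. Among the 17 genes of serum response factor, ternary complex factors and CREB, 1 rose and 1 fell in Control against Normal, with 1 call without any 1 Control library and 4 without Normal 3. The gene that rose was Mkl1, a coactivator of serum response factor, at 22.2 and 23.1 CPM in RP, 28.0, 22.7 and 22.1 CPM in Control, and 8.91, 9.67 and 9.22 CPM in Normal. Its log2 change was 1.39 ± 0.168 (SE), adjusted p = 0.000245, in Control, and 1.29 ± 0.183 (SE), adjusted p = 0.00263, in RP against Normal. Rps6ka3, the kinase RSK2, fell in Control by -0.57 ± 0.144 (SE), adjusted p = 0.0229. The log2 change was 0.36 (adjusted p = 0.167) for Srf, 0.23 (adjusted p = 0.523) for Elk1 and -0.20 (adjusted p = 0.483) for Creb1, none past the threshold.

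Of 25 genes of the MAP kinase cascade tested, 2 rose and 1 fell in Control against Normal, and 1 was called without Normal 2. Map2k6, the kinase MKK6 that activates p38, was at 17.6 and 20.1 CPM in RP, 24.9, 18.0 and 16.8 CPM in Control, and 3.42, 4.21 and 5.05 CPM in Normal. All RP and Control libraries were above all Normal libraries, with a log2 change of 2.24 ± 0.225 (SE), adjusted p = 6.97e-05, in Control and 2.15 ± 0.242 (SE), adjusted p = 0.000528, in RP. Hras, a small GTPase at the head of the cascade, rose by 0.77 ± 0.176 (SE), adjusted p = 0.0137, and the kinase gene Araf fell by -0.97 ± 0.227 (SE), adjusted p = 0.0157, in Control.

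Textbook targets of AP-1 and EGR1 gave 1 higher and 3 lower of 17 tested in Control against Normal, with a list median of -0.70. The background was 4.99% higher and 5.45% lower, and 0.835% lower in RP against Normal. In Control against Normal the list had 2 calls without Control 1, Control 3 or Normal 2 and 9 without Normal 3. Thbs1, an inhibitor of vessel growth, was at 9.16 and 15.9 CPM in RP, 8.11, 11.6 and 10.0 CPM in Control, and 139, 52.4 and 27.8 CPM in Normal. It fell by a log2 change of -2.89 ± 0.462 (SE), adjusted p = 0.00178, in Control and by -2.54 ± 0.532 (SE), adjusted p = 0.0244, in RP against Normal. In RP against Normal it was the only call of the list, which had 0 calls without RP 1 or Normal 2, 2 without Normal 1 and 5 without Normal 3. Ccnd1, which encodes cyclin D1, rose in Control by 1.42 ± 0.273 (SE), adjusted p = 0.00541. In RP against Control edgeR called 0 genes in each of these 6 lists. DESeq2 called 3 partners, 2 other immediate-early genes, 1 upstream factor and 1 target there. Over all genes, too, DESeq2 called more than edgeR in this comparison, and Maff is in 2 of these lists.

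**Figure D5:**
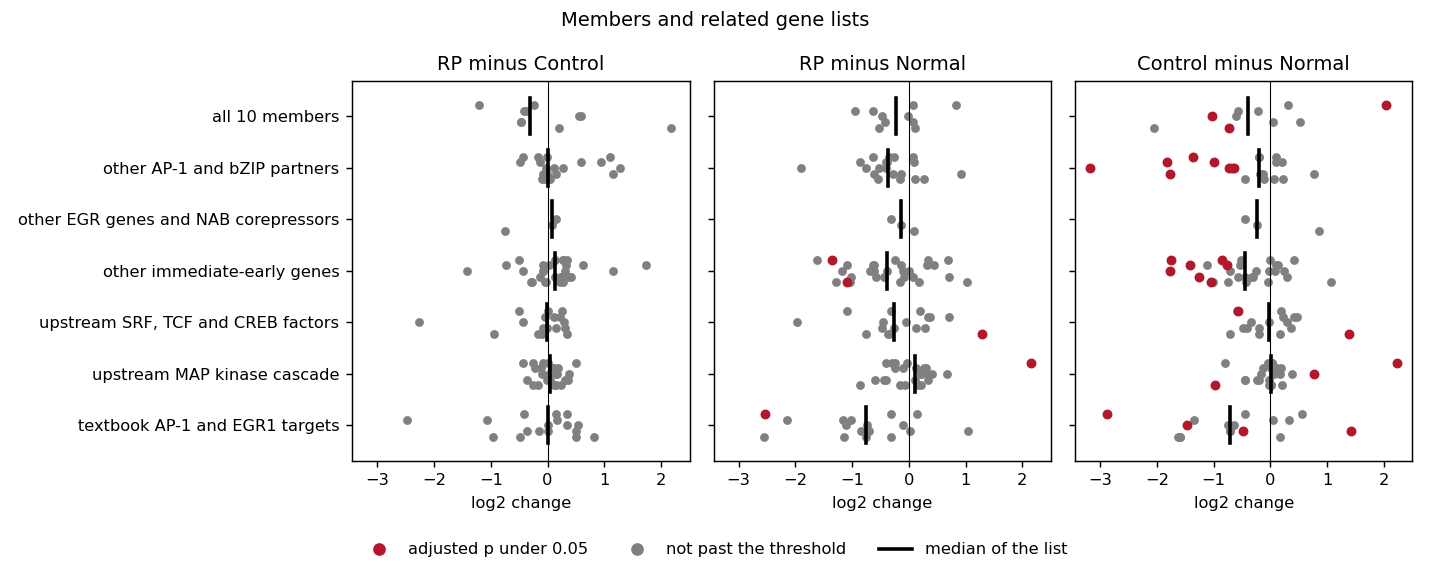
Fitted log2 change of every tested gene of the 10 members and of 6 related lists for RP minus Control, RP minus Normal and Control minus Normal, with red points past an adjusted p of 0.05 and a bar at the list median. No point is red for RP minus Control, and 8 of 20 partners and 7 of 29 other immediate-early genes are red to the left of 0 for Control minus Normal.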

How the data were processed

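The deposited tables hold raw counts per gene, 1 table per library, per the file headers. Libraries were made with the Lexogen QuantSeq 3' kit from 500 ng of RNA, per the labels' protocols. Bowtie2, edgeR and mm10 are named in the submitters' processing notes without versions or roles. The counting tool, its strand setting and the annotation are not given in the sources used here. A count at the 3' end measures transcripts, not their length.

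Counts were fitted over 13174 genes (edgeR filterByExpr, of 23282 rows, 5430 without a count) with edgeR 4.0.16 in R 4.3.3 (TMM, glmQLFit, all 3 groups sharing a dispersion, common biological coefficient of variation 0.195). P-values were adjusted by Benjamini-Hochberg over all genes tested, with a threshold of 0.05. Deviations use log2 CPM with a prior count of 2. The fit was also run on simulated data with 200 changed genes, and the outcome of that run is not described here. All members are named, as are, in each related list and comparison, up to 3 called genes with the smallest p, 7 fixed partners and upstream genes, and the genes nearest to Fos, Jun and Egr1. The remaining called partners (Mafg, Mafk, Atf4 and Cebpb) were named after their values were seen. One gene that this rule names is not reported here. Members and lists were chosen with earlier results of these data known. Alternatives were other scaling, filters, DESeq2 1.42.0, a replicate block, haemoglobin genes removed, pairs of groups fitted alone, and each library left out. Figures were drawn with matplotlib 3.10.9.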

Additional observations from a re-analysis of the deposited data

How the results depend on the processing

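Jun kept its call for Control minus Normal under all 16 alternatives, and Fosb and Fosl2 under 14 of 16 each. Atf3 passed there with no filter (adjusted p = 9.73e-05), with the replicate block (0.0396) and without Normal 3 (0.0103). With no filter, 5 members differed among the 3 groups, 1 (Atf3) for RP minus Control and 1 (Junb) for RP minus Normal, and DESeq2 also called 1 (Junb) there. Leaving out a library gave 0 to 3 members for any difference, 2 to 4 for Control minus Normal, and 0 for both comparisons of RP.

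Over all genes, RP minus Control had 23 calls, 204 with no filter, 11 at a mean CPM of at least 5, 112 with DESeq2 and 121 when only these groups were fitted. RP minus Normal had 330, and 718, 663 and 100 with no filter, with DESeq2 and with only these groups. Leaving out a library gave 608 to 1858 calls for Control minus Normal, against 1376, 8 to 72 for RP minus Control and 57 to 670 for RP minus Normal. The cause of these shifts was not tested.

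Signs turned for members that did not pass. With the replicate block the log2 change for RP minus Normal was -0.52 for Atf3, -0.0733 for Egr1 and -0.019 for Jund. Egr3 in that comparison was 0.0023 with upper-quartile scaling and 0.013 with only these groups. Leaving out a library gave ranges for RP minus Normal of -1.34 to 0.82 for Atf3, -0.11 to 0.25 for Egr1, -0.64 to 0.79 for Egr3, -1.98 to 0.051 for Fos and -0.19 to 0.30 for Jund. For RP minus Control they were -0.047 to 1.42 for Egr3 and -1.75 to 0.28 for Fos, and for Control minus Normal -1.40 to 0.21 for Egr3, -0.64 to 0.39 for Fos and -0.23 to 0.44 for Ier2. The cause was not tested.

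The replicate numbers share only a number: over 7 same-numbered pairs the correlation of deviations was -0.07 to 0.08. The block gave 1218, 17 and 262 calls for Control minus Normal, RP minus Control and RP minus Normal. With 1 RP library left out, the spread of the remaining one was taken from Control and Normal. The test for any difference was not run on pairs of groups, and Egr3 has no value at a mean CPM of at least 5. The small groups and low counts of Egr3 and Fosb limit precision.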
